A study of Mus musculus with 6 samples.

Results

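Markers of fibroblasts and of adventitial progenitors were followed in cultured mouse lung fibroblasts: Cd34, Fap, Dpt, S100a4, Pi16, Ly6a, Thy1, Dpp4 and Vim. A gene was taken as the probe set annotated to its symbol alone and, where there were several, the brightest over all arrays. Of these 9 genes 8 were found among the 22180 genes tested. Ly6a had no such probe set and was not analysed here. The fibroblasts came from lungs of adult UBCCreERT2:R26RSmoM2 mice of mixed strain, in which the ubiquitin C promoter drives a tamoxifen-inducible Cre recombinase and the Rosa26 locus carries SmoM2, a constitutively active Smoothened, behind a Cre-dependent switch. In the 4OHT group (n = 3 arrays) cells received 1 µg/ml 4-hydroxytamoxifen for 48 h, intended to activate SmoM2. In the vehicle group (n = 3 arrays) cells of the same genotype were given vehicle for the same time. Both groups thus carried the Cre and the SmoM2 allele, and drug, Cre activity and active Smoothened cannot be told apart. The growth protocol gives enrichment on plastic in serum and at most 3 passages. The labels name triplicate wells under 1 genotype number and no separate animals, so p-values measure the spread between these wells, which may be technical.

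Most tissues hold fibroblasts of several kinds. Around the airways and vessels of the lung, the adventitial cuff houses fibroblasts marked in the mouse by Cd34, Ly6a, Pi16, Dpp4 and Dpt, which are widely regarded as progenitor-like, whereas fibroblasts of the alveolar walls carry other genes such as Npnt and Itga8. Vim, S100a4, Thy1 and Fap are used more broadly as markers of mesenchymal, activated or matrix-remodelling cells, and several of the 9 are also read in endothelial cells or leukocytes. The comparison asked which of these markers differed between wells given 4OHT, the drug meant to activate SmoM2, and wells given vehicle.

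Cd34, Fap, Dpt and S100a4 fell in 4OHT wells, and Pi16, Thy1, Dpp4 and Vim did not pass the test. A gene was called when its adjusted p was under 0.05 (limma, Benjamini-Hochberg over all 22180 genes), and log2 fold changes are 4OHT minus vehicle. The falls were 1.71-fold for Cd34, 1.53-fold for Fap, 1.47-fold for Dpt and 1.34-fold for S100a4. Thus 4 of the 8 measured markers were called lower and none was called higher, against 6.62% of all genes called lower and 5.38% called higher, or 12% in either direction. At an unadjusted p under 0.05 limma gave 5 lower, with Pi16 added, and 0 higher. All 8 lay above the median level of all genes, and among genes above that level 10.9% were called lower. The median log2 fold change of the 8 was -0.31, and that of all genes was -0.01. In 6 of the 8, the highest 4OHT array was below the lowest vehicle array (17.8% of all genes), and in none was the lowest 4OHT array above the highest vehicle array (15% of all genes). Groups that did not overlap in either direction were found for 32.7% of all genes. The genes were chosen with earlier results of these data known, so these shares are a description.

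**Figure D1:**
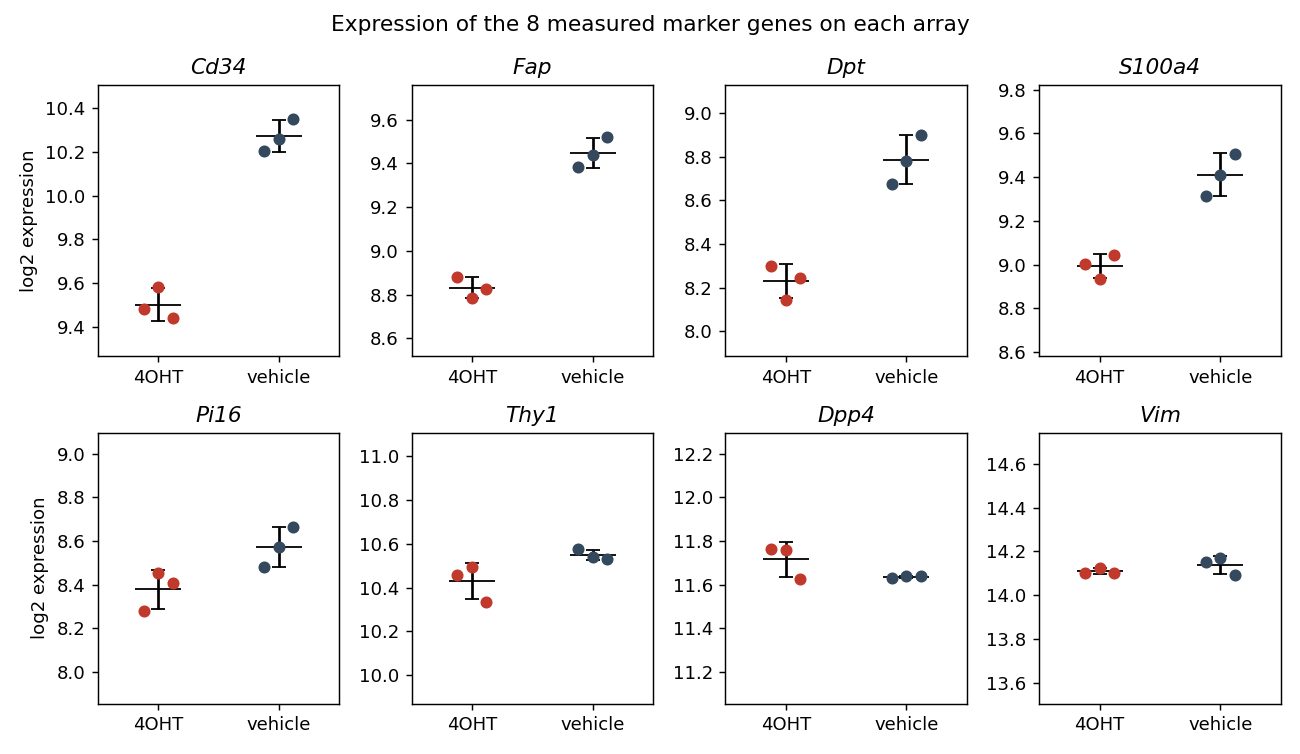
Log2 expression of the 8 measured markers, with a point per array, 3 arrays of 4OHT wells left of 3 of vehicle wells, and bars for the mean ± SD; every panel spans the same range of log2 units. In the panels of Cd34, Fap, Dpt and S100a4 the 4OHT points lie below the vehicle points by 0.27 to 0.62, while in those of Dpp4 and Vim the groups overlap.

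The sequences before the annotated gene starts are shown for Cd34, Dpt and S100a4, the called markers with an entry in the RefSeq promoter table, and for Vim, the marker with the smallest difference between the groups. Entries were found for 6 of the 9 genes. Each sequence is the 250 bases before the start on the plus strand of GRCm38.p6, at chr1:194938571-194938820 for Cd34, chr1:164796413-164796662 for Dpt, chr3:90603520-90603769 for S100a4 and chr2:13574061-13574310 for Vim. Capitals mark the TATA-box letters TATAAA.
Cd34: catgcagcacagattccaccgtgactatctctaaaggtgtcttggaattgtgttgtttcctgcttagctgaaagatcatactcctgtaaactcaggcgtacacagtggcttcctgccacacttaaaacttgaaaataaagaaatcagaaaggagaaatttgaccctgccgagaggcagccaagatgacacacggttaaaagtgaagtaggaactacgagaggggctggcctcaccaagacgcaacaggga
Dpt: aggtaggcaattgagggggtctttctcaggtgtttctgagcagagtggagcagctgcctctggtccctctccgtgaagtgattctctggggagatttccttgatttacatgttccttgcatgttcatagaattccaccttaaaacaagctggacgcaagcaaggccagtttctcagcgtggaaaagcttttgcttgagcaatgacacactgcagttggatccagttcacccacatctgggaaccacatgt
S100a4: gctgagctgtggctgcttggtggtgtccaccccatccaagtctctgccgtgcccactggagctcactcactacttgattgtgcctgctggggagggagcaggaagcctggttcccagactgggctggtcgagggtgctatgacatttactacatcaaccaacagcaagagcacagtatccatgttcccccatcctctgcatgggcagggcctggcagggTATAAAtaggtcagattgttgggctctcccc
Vim: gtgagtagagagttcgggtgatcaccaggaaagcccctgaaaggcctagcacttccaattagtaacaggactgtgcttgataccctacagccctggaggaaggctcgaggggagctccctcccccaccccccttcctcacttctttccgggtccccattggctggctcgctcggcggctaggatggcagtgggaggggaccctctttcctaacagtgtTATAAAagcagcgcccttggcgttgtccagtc
S100a4 held TATAAA at bases -31 to -26 and Vim at -32 to -27, counted back from the gene start. The same letters were in 12.4% of the 32851 promoters of the table, at any place in the 250 bases and on either strand. The share with them at the place seen in S100a4 and Vim was not counted. No TATAAA was in the stretches of Cd34 and Dpt. The Gli-site letters GACCACCCA, in 0.225% of promoters on either strand, and the AP-1 letters TGANTCA, in 6.75%, were in none of the 4 stretches shown. CCAAT, in 33.8% of promoters, stood before Vim at -196 to -192 and, on the opposite strand, at -94 to -90. Dpp4, whose stretch is not shown, held TATAAA at -227 to -222. Of the genes with these letters S100a4 was called, and Vim and Dpp4 were not, which is given as a description. The part of any of these letters in the marker changes was not tested.

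Cd34, a sialomucin of progenitor cells, adventitial fibroblasts and endothelium, had the largest change of the set. Its log2 expression was 9.48, 9.58 and 9.44 in the 3 4OHT wells, against 10.21, 10.26 and 10.35 in the 3 vehicle wells. All 4OHT wells were low, all vehicle wells high, and the gap of 0.62 between the groups exceeded the range of 0.15 within each of them. Cd34 averaged 9.50 ± 0.07 in 4OHT wells and 10.27 ± 0.07 in vehicle wells (SD, n = 3 each; log2 fold change -0.77, SE 0.061, 95% interval -0.92 to -0.63, adjusted p = 0.000785). By size of change it was number 222 of the 22180 genes.

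Dpt encodes dermatopontin, a small matrix protein that binds decorin and marks fibroblasts shared by many tissues. It read 8.30, 8.14 and 8.25 log2 units in 4OHT wells, against 8.68, 8.78 and 8.90 in vehicle wells. The groups lay apart by 0.38, with every 4OHT well low. The mean was 8.23 ± 0.08 in 4OHT wells and 8.79 ± 0.11 in vehicle wells (SD, n = 3 each; log2 fold change -0.56, SE 0.072, adjusted p = 0.00475).

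Pi16, a secreted or membrane-anchored CAP-domain protein and the marker that names the progenitor-like fibroblast state, was not called. It read 8.28, 8.45 and 8.41 log2 units in 4OHT wells, against 8.48, 8.57 and 8.66 in vehicle wells. All 4OHT wells were below all vehicle wells, but by only 0.03, and the spread within a group exceeded that gap. The log2 fold change was -0.19 (SE 0.069, 95% interval -0.36 to -0.03 before adjustment, adjusted p = 0.131). The adjusted p was 0.0427 when only genes above the median level were tested.

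Dpp4 encodes CD26, a membrane serine protease that removes dipeptides after proline or alanine and marks the same progenitor-like state. Its log2 expression was 11.76, 11.76 and 11.62 in 4OHT wells, against 11.63, 11.64 and 11.64 in vehicle wells. The groups overlapped, because 4OHT replicate 3 lay just under the vehicle wells and the other 4OHT wells above them. The difference was 0.08 log2 units (SE 0.052, 95% interval -0.04 to 0.21, adjusted p = 0.394), which was the only positive one of the 8.

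Fap encodes fibroblast activation protein, the closest relative of Dpp4, a protease that also cleaves within peptide chains. It read 8.88, 8.79 and 8.83 log2 units in 4OHT wells, against 9.39, 9.44 and 9.52 in vehicle wells. All 4OHT wells were low, and the groups were 0.50 apart. The mean was 8.83 ± 0.05 in 4OHT wells and 9.45 ± 0.07 in vehicle wells (SD, n = 3 each; log2 fold change -0.62, SE 0.053, adjusted p = 0.00105). In the RefSeq annotation Dpp4 and Fap are near neighbours with only the glucagon gene Gcg between them among protein-coding genes, and Gcg did not pass the test (log2 difference -0.005, adjusted p = 0.981). The log2 fold change of Fap was thus 0.70 below that of Dpp4, which is given as a description.

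S100a4, a calcium-binding protein also called fibroblast-specific protein, is read in fibroblasts and in macrophages. Its log2 expression was 9.003, 8.934 and 9.042 in 4OHT wells, against 9.31, 9.41 and 9.51 in vehicle wells. The groups lay 0.27 apart, the narrowest gap of the 4 called markers. The mean was 8.99 ± 0.05 in 4OHT wells and 9.41 ± 0.10 in vehicle wells (SD, n = 3 each; log2 fold change -0.42, SE 0.063, adjusted p = 0.0086).

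Thy1 and Vim mark mesenchymal cells more widely. Thy1, a GPI-anchored surface glycoprotein also known as CD90, read 10.46, 10.49 and 10.34 log2 units in 4OHT wells, against 10.58, 10.54 and 10.53 in vehicle wells. The 4OHT wells were all below the vehicle wells, by 0.03, and the difference of -0.12 log2 units did not pass (95% interval -0.25 to 0.01, adjusted p = 0.226). Vim, the intermediate filament of mesenchymal cells, read 14.10, 14.12 and 14.10 in 4OHT wells, against 14.15, 14.17 and 14.09 in vehicle wells. Its groups overlapped and differed by -0.03 on the log2 scale (95% interval -0.13 to 0.07, adjusted p = 0.718), and a further Vim probe set gave 0.0043 (adjusted p = 0.975).

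**Figure D2:**
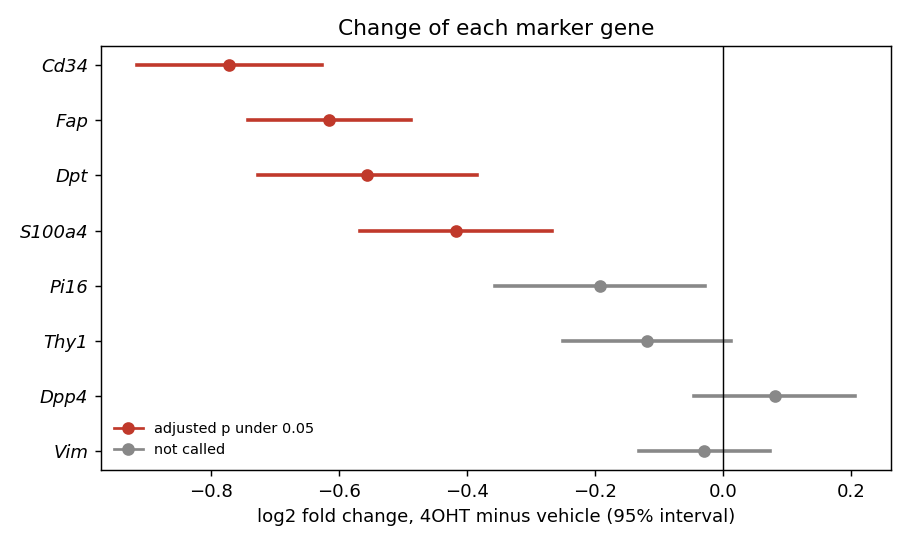
Log2 fold change, 4OHT minus vehicle, of each measured marker with its 95% interval before adjustment, coloured by whether the adjusted p was under 0.05. Cd34, Fap, Dpt and S100a4 lie between -0.77 and -0.42, and the other 4 between -0.19 and 0.08.

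The wells of a group did not spread alike in all markers. Vehicle replicate 1 was the lowest and vehicle replicate 3 the highest of the vehicle wells in Cd34, Fap, Dpt, S100a4 and Pi16. In Thy1 these places were exchanged. Among 4OHT wells, replicate 2 was the lowest in Fap, Dpt and S100a4, and replicate 3 in Cd34, Thy1 and Dpp4. With any 1 of the 6 arrays left out, Cd34, Fap, Dpt and S100a4 were still called, with adjusted p up to 0.00654, 0.00768, 0.0244 and 0.0408, and the other 4 were not.

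**Figure D3:**
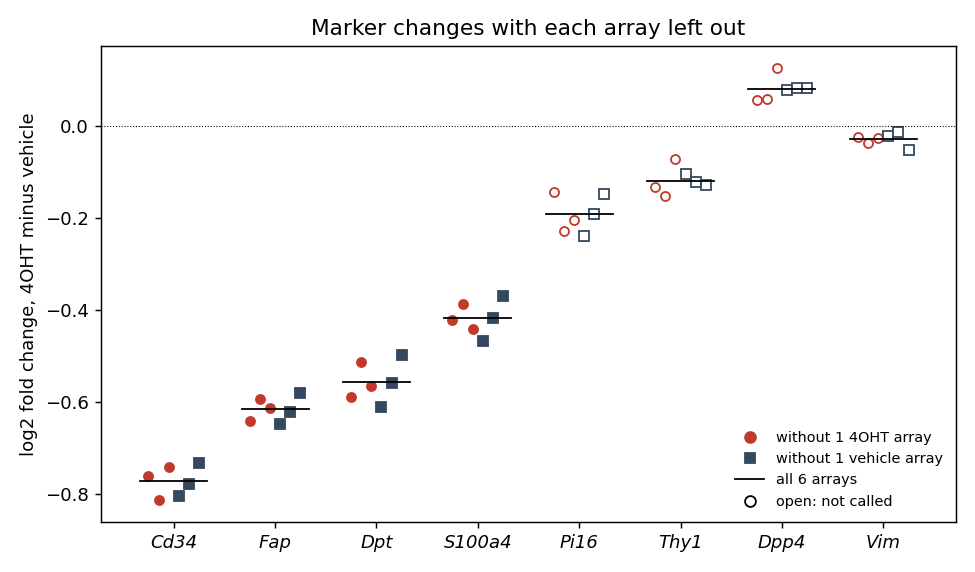
Log2 fold change, 4OHT minus vehicle, of each marker with all 6 arrays (lines) and with each array left out (circles for a 4OHT array, squares for a vehicle array; filled where called at an adjusted p under 0.05). All points of Cd34, Fap, Dpt and S100a4 are filled and lie at -0.37 or lower, and all points of the other 4 markers are open.

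Further genes of adventitial and progenitor-like fibroblasts moved in both directions. Of 38 measured genes of a list without the 9 markers, 13 were called lower and 6 higher, with a median log2 fold change of -0.03. Tnxb, which encodes the matrix glycoprotein tenascin X, rose by 1.46 log2 units and averaged 9.58 in 4OHT wells and 8.12 in vehicle wells (adjusted p = 0.000469). Tppp3, a tubulin-binding protein and marker of tendon and adventitial progenitors, rose by 1.35. The hyaluronan synthase gene Has1 rose by 0.70, and Cd55, which restrains complement, by 0.63. Has1 averaged 7.08 in 4OHT wells and 6.38 in vehicle wells, below the median level of all genes. Among the 13 that fell, those of smallest p were Adamtsl2, which encodes a microfibril-associated glycoprotein and fell by 0.52, the sphingomyelinase gene Smpd3, which fell by 0.63, the chemokine-scavenging receptor gene Ackr3, which fell by 0.44, and the alarmin gene Il33, which fell by 0.53. Penk, the proenkephalin gene, had the largest fall of the list and fell by 1.00 (adjusted p = 0.00874). The number lower was 6 without 4OHT replicate 2 or vehicle replicate 2 and 8 without 4OHT replicate 1, vehicle replicate 1 or vehicle replicate 3. It was 7 in the fit over all probe sets and 6 with the replicate number as a block.

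Genes of alveolar fibroblasts were called lower in 7 and higher in 2 of 28 measured, with a median log2 fold change of -0.04. Npnt, an integrin ligand of the basement membrane, fell by 0.52 on the log2 scale, and Itga8, the integrin chain that binds it, fell by 0.33. Mamdc2, a proteoglycan gene, rose by 1.00 and Gyg, which primes glycogen synthesis, by 0.46. The number lower was 2 without 4OHT replicate 1, 4OHT replicate 2 or vehicle replicate 2. It was 3 without vehicle replicate 1 or 3, with the replicate number as a block or in the fit over all probe sets. In a trended, robust eBayes fit, as with only genes above the median level, 11 were lower and 5 higher, and with array weights 4 were higher.

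Of 27 general fibroblast genes, all above the median level, 4 (14.8%) were called lower, against 10.9% of all genes above that level. None was called higher (9 lower and 1 higher at an unadjusted p under 0.05 in limma), and the median log2 fold change was -0.05. The 4 were the collagen VI genes Col6a2 and Col6a1, which fell by 0.49 and 0.37, the matricellular gene Postn, by 0.33, and the collagen III gene Col3a1, by 0.29. The receptor genes Pdgfra and Pdgfrb had log2 fold changes of 0.01 (adjusted p = 0.9498) and 0.10 (adjusted p = 0.174). In a trended, robust eBayes fit 11 of the 27 were lower and 2 higher, with only genes above the median level 9 and 1, with array weights 7 were lower, and without vehicle replicate 3, 1 was higher.

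Surface antigens used to sort stromal cells were called lower in 5 and higher in 2 of 21, with a median log2 fold change of -0.04. Mcam, an adhesion molecule of perivascular cells, fell by 0.51, the collagen-binding integrin chain gene Itga11 by 0.49, Nt5e, which encodes the ecto-enzyme CD73, by 0.38, the proteoglycan gene Cspg4 by 0.35 and Itga5 by 0.21. Cd24a rose by 0.58 and the tetraspanin gene Cd63 by 0.20. The calls of Itga5 and Cd63 were each lost without any array other than 4OHT replicate 3, and with only genes above the median level, as in a trended, robust eBayes fit, 9 were lower and 4 higher.

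Relatives of the markers and genes of like function were read in the same fit. They included 10 other genes of proline-directed peptidases or of proteins akin to Dpp4. Among these the lysosomal dipeptidyl peptidase gene Dpp7 rose by 0.76 (adjusted p = 0.000236) and Pepd by 0.22. Prepl fell by 0.34 and Dpp6 by 0.30. Pepd lost its call without any 1 array (adjusted p up to 0.155), and Dpp6 without 4OHT replicate 2 or 3 or vehicle replicate 2 or 3 (adjusted p up to 0.105). Among 10 other CAP-domain genes related to Pi16, Pi15 fell by 0.80 (adjusted p = 0.0014), Glipr2 by 0.40 and Crispld2 by 0.36, and none was called higher (1 at an unadjusted p under 0.05 in limma).

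Of 16 other S100 genes and partners S100a1 fell by 0.34, S100a16 by 0.32 and S100a14 by 0.29, and none was called higher (0 at an unadjusted p under 0.05 in limma). The S100a14 call was lost without 4OHT replicate 1, 4OHT replicate 2 or vehicle replicate 2 (adjusted p up to 0.0563), and the S100a16 call without any array other than 4OHT replicate 3 (adjusted p up to 0.0835). Of 24 Ly6-type genes, the family of the unmeasured Ly6a, Cd59a fell by 0.34 and Lynx1 by 0.27. These were 8.33% of the list, near the 6.62% of all genes called lower, and Ly6a itself was not read. The Lynx1 call was lost without any array other than 4OHT replicate 3 (adjusted p up to 0.0912). Of 16 genes of intermediate filaments and their partners, the lamin gene Lmnb1 fell by 0.37, a call that held of the 6 arrays only without vehicle replicate 1 (adjusted p up to 0.0877). That 1 gene was 6.25% of its list, near the share of all genes called lower. Of 5 sialomucins akin to Cd34, endomucin (Emcn) fell by 0.92 (adjusted p = 0.0155). That call failed without 4OHT replicate 2 or vehicle replicate 3 (adjusted p up to 0.0536).

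Genes most like the extreme markers were found by the root mean square difference of log2 values centred on each gene's mean over the 6 arrays. Nearest to Cd34 were the carboxylesterase gene Ces2g (0.0352), the glycosyltransferase gene B3gnt8 (0.0366) and Nmnat2, which makes NAD (0.0485), with log2 fold changes of -0.79, -0.74 and -0.82. Nearest to Dpp4, the marker with the only positive change, were Lats1 (0.0139), Wdr41 (0.0146) and Upk3bl (0.0151), none of them called.

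Markers of the labelled cell type and of other cell types were read beside the set. All 8 defining lung fibroblast markers had levels from 9.73 to 13.73, and 1 of them, Col3a1, was called lower. The number lower was 4 in a trended, robust eBayes fit, 3 with only genes above the median level, and 2 with the replicate number as a block or with array weights, and in each of the first 2 settings 1 was called higher. Of 12 epithelial and 11 leukocyte markers 10 and 8 lay below the median level of all genes, with Epcam at 5.11 in 4OHT wells and 5.09 in vehicle wells and Ptprc at 5.35 in 4OHT wells and 5.27 in vehicle wells. 1 epithelial marker, Krt8, fell (by 0.33), while Krt18, also above the median level, differed by 0.17 and was not called (adjusted p = 0.162). The macrophage marker Cd68 rose by 0.48, although 8 of the 11 leukocyte markers had negative log2 fold changes and 3 positive ones. Lyz2 fell by 0.24, a call lost without any array other than vehicle replicate 1 and after centring on array medians. Of 9 mesothelial markers 7 lay above that level, up to 13.52 for Upk1b, although the labels name fibroblasts.

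Cd34 is also an endothelial gene, and endothelial markers moved with it in part. Of 12 measured, Erg fell by 0.99, Cdh5 by 0.95, Emcn by 0.92 and Pecam1 by 0.36, while Tek rose by 0.42 and Kdr by 0.21. Across the 12, 6 log2 fold changes were positive and 6 negative, with a median of 0.01, and 6 genes were not called. The mean log2 level of the list ranged from 7.65 to 7.67 in 4OHT wells and from 7.80 to 7.89 in vehicle wells. 7 of the 12, among them Emcn, Pecam1 and Tek, lay below the median level of all genes. Emcn averaged 5.84 in 4OHT wells and 6.76 in vehicle wells, Pecam1 6.60 and 6.96, and Cldn5 6.27 and 6.16. The Kdr call, at an adjusted p of 0.0494, was lost without any 1 array and in a trended, robust eBayes fit. It was also lost in the fit that averaged the probe sets of each gene, although Kdr has only 1. The Pecam1 call was lost without 4OHT replicate 1 or 2, and without 4OHT replicate 2, 2 of the 12 were lower. The part of endothelial cells in the Cd34 result was not tested. In bulk RNA fewer cells of a type and less RNA per cell cannot be told apart.

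Mural, mesothelial and proliferation markers also differed between the groups. Of 12 smooth muscle and pericyte markers 10 fell, among them Trpc6 by 1.25, Rgs5 by 1.19, Lmod1 by 0.66 and Myh11 by 0.54, with a list mean from 10.36 to 10.42 in 4OHT wells and from 10.95 to 10.98 in vehicle wells. Of 11 proliferation genes 10 fell, Ccna2 by 1.58, Plk1 fell by 1.51, Mki67 by 1.46 and Bub1 by 1.41, with list means from 8.52 to 8.68 in 4OHT wells and from 9.65 to 9.74 in vehicle wells. Of 9 mesothelial markers Lrrn4 fell by 0.54, Upk3b by 0.41, Rspo1 by 0.39 and Bnc1 by 0.24, and Msln rose by 0.30, with list means from 10.72 to 10.80 in 4OHT wells and from 10.95 to 10.98 in vehicle wells. Among the 9 mesothelial markers, 6 log2 fold changes were negative and 3 positive, and 4 genes were not called. The calls of Msln and Bnc1 were each lost without 4OHT replicate 2. That of Msln was also lost without 4OHT replicate 1, and that of Bnc1 without vehicle replicate 1 or 2. The part of these cells and of cell division in the marker changes was not tested.

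**Figure D4:**
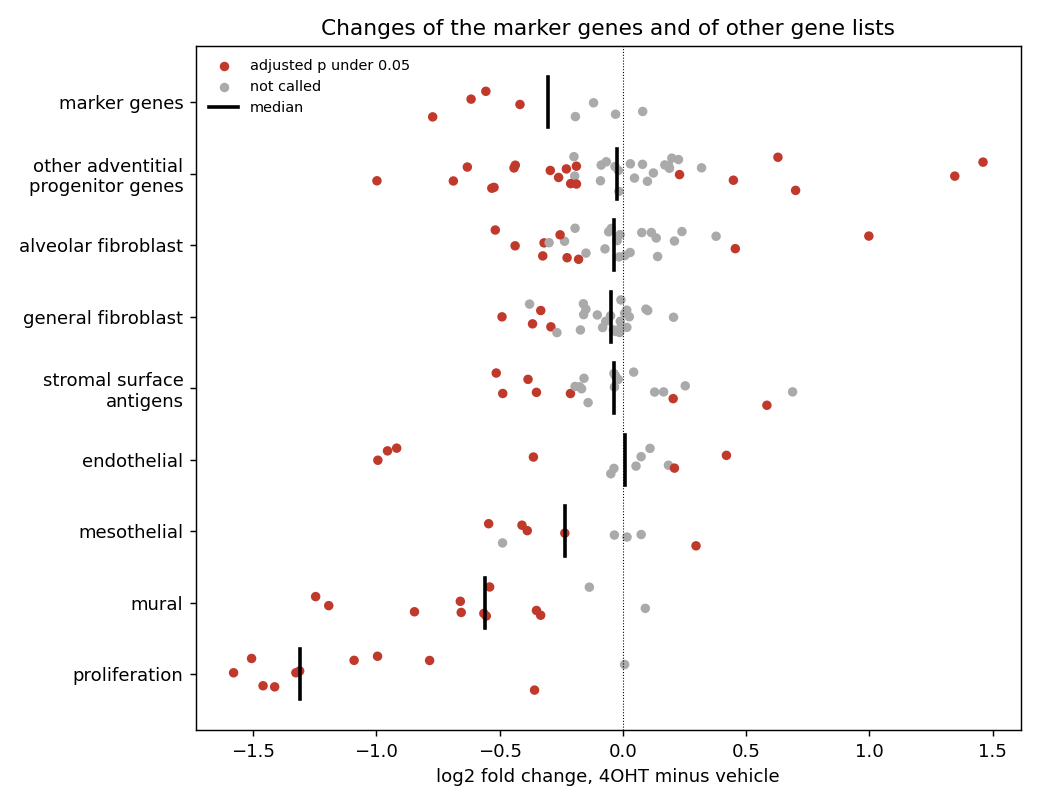
Log2 fold change, 4OHT minus vehicle, of every measured gene of 9 lists, with a point per gene (red where the adjusted p was under 0.05) and a bar at each list's median. The medians of the marker genes (-0.31) and of the mesothelial (-0.24), mural (-0.56) and proliferation lists (-1.31) lie below 0. Those of the other adventitial progenitor genes (-0.03), the alveolar (-0.04) and general fibroblast genes (-0.05), the stromal surface antigens (-0.04) and the endothelial genes (0.01) lie near 0.

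The 6 arrays were alike. Pearson's r across the 22180 genes, which are not independent replicates, was 0.997 to 0.998 within a group and 0.995 to 0.996 between groups. Array medians lay between 7.44 and 7.47. The hedgehog target Gli1 averaged 6.81 in 4OHT wells and 6.46 in vehicle wells (a log2 difference of 0.35 with an adjusted p of 0.0167). The Gli1 call failed without any 1 of the vehicle arrays, and Ptch1 and Hhip were not called. Precision is limited by the number of arrays, 3 in each group.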

How the data were processed

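RNA of 6 wells was hybridised to single-colour arrays. The deposited table holds log2 expression per probe set, and oligo, RMA and limma are named, without versions, per the submitters' processing notes. RMA normalizes arrays to like distributions, so a shift common to all genes is removed and changes of dim probe sets are compressed. Depth has no meaning for arrays.

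From 41345 probe sets, 23521 with 1 gene symbol in the platform annotation were kept (1814 had several and 16010 none, and 1 further Cd34 probe set with several was not used), and the brightest stood for its gene, giving 22180 genes. Groups came from the titles. R 4.3.3 and limma 3.58.1 (lmFit, eBayes, two-sided) gave p-values, adjusted by Benjamini-Hochberg over all genes. The fit was tested on simulated data.

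The members and lists were chosen with earlier results of these data known. The text names all members, up to 4 genes of smallest p from each of 19 lists, and the 3 genes most like the member with the largest rise and with the largest fall. Pecam1, Kdr, Cspg4, Itga5, Cd63, Bnc1, Adamtsl2, Smpd3, Ackr3, Il33 and Penk were named after their values were seen. So were Pdgfra, Pdgfrb, Gcg, Krt18, Upk1b, Ly6e and the dim markers. Promoter sequences are RefSeq's for GRCm38.p6. The build behind the array annotation is not stated in these sources. Alternatives covered pairing, scaling, filters, probe sets, variance, weights, thresholds and leaving out arrays.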

Additional observations from a re-analysis of the deposited data

How the results depend on the processing

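In all 15 alternative settings none of the 8 markers was called higher. Between 4 and 5 were called lower, with 5 only among genes above the median level, where Pi16 passed. The marker that turned its sign was Vim, in its dimmer probe set (log2 difference 0.0043, adjusted p = 0.975), and the cause was not tested. The count of all genes called (2662) was 4123 with a trended, robust eBayes, 1010 at an adjusted p under 0.01 and between 1220 and 2326 with an array left out. With the replicate number as a block it was 1568, and Cd34, Fap, Dpt and S100a4 were still called (adjusted p from 0.00914 to 0.0256). The numbers share no stated source, and the deviations of same-numbered wells correlated at only -0.024 to 0.062. Among other named genes the block ended the calls of Dpp6, Pepd, S100a16, Tek, Lyz2, Msln, Itga5, Cd63, Bnc1, Kdr and Gli1. With the block, 6 adventitial, 3 alveolar, 6 general fibroblast and 2 defining lung fibroblast genes were lower. Dim probe sets lie near background, which limits what can be read from them.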

Other observations

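Of 26 measured interferon-stimulated genes, a class that Ly6a is known to respond with, 4 rose and none fell (9 and 0 at an unadjusted p under 0.05 in limma), with a median log2 fold change of 0.41. Ifit2, which restrains viral translation, rose by 1.03, Parp14 by 0.68, the signalling factor gene Stat2 by 0.64 and Oas2 by 0.41. The calls of Stat2 and Oas2 were lost without 4OHT replicate 1 or 2. Without vehicle replicate 1, 17 of the 26 were called higher. The list's mean log2 level ranged from 8.27 to 8.45 in 4OHT wells and from 7.78 to 8.36 in vehicle wells, so the groups overlapped. Ly6e, a relative of Ly6a, differed by -0.02 log2 units (adjusted p = 0.821).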
